A study of Mus musculus with 6 samples.

Results

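Kinesins are motor proteins that walk along microtubules or pull them apart, using ATP. In the oocyte some of them build and shorten the meiotic spindle and close the polar body, others carry vesicles, mitochondria and RNA, and others serve cilia in somatic cells. The transcripts described here are those of the 42 protein-coding genes whose symbol begins with Kif or Kifc and a number, out of 54532 genes in the deposited count table. Of 47 rows with such a symbol, 4 that are not protein-coding and 1 gene for a kinesin-binding protein, Kif1bp, were left out by that rule.

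RNA of mouse oocytes was sequenced in 3 libraries of mice given AMH and 3 control libraries, all from C57BL/6J mice labelled as 6 to 7 weeks old. AMH, anti-Müllerian hormone, is a hormone of the granulosa cells that surround growing oocytes. The AMH mice received 300 ng of recombinant mouse AMH into the abdominal cavity each day from day 21 of age. The labels do not say whether controls were injected, which oocyte stage was taken, whether cumulus cells were stripped off, or whether each library is a separate mouse, so p-values cover the spread among these libraries alone, and it may be technical.

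Libraries held 66392859 to 69395450 counts in the AMH group and 69997949 to 72109080 counts in controls. Kinesins made up 0.223%, 0.245% and 0.275% of all counts in AMH 1, 2 and 3, against 0.313%, 0.333% and 0.287% in controls 1, 2 and 3. CPM, the usual count relative to library size, here scaled by TMM, is used to compare libraries. FPKM, the authors' value per gene length and library size, is used to compare genes with each other. The labelled cell type was checked by its markers: 20 oocyte markers summed to 17380, 16670 and 28470 CPM in AMH 1, 2 and 3, against 34300, 37350 and 29080 CPM in controls 1, 2 and 3. Cumulus markers (18 genes) summed to 2703, 2414 and 2713 CPM in AMH 1, 2 and 3, against 487, 291 and 2827 CPM in controls 1, 2 and 3. Control 3 therefore lay with the AMH libraries in cumulus markers, and AMH 3 lay with control 3 in oocyte markers. In such bulk samples, fewer cells of a type and less RNA per cell cannot be told apart.

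A few cytokinesis and spindle motors supplied most kinesin RNA. Kif23, the motor subunit of centralspindlin, which bundles the central spindle and is needed to close the dividing cell, led with 97.5 ± 29.5 FPKM in AMH and 158 ± 13.8 FPKM in control libraries (SD, n = 3 each). Kif20a, a related motor of the central spindle, followed with 61.3 ± 15.8 FPKM in AMH and 95.8 ± 8.43 FPKM in control libraries. Together these 2 genes held 40.8%, 42.3% and 48.9% of the summed kinesin FPKM in AMH 1, 2 and 3, against 48.6%, 45.8% and 48.8% in controls 1, 2 and 3, so the groups overlapped. After a gap came Kif2c, Kifc3, Kif4, Kif22, Kif3a and Kif20b, where each gene's FPKM range overlapped that of the next in both groups, and then Kif11 and Kif5c, whose ranges did not overlap each other in either group. The 10 genes of highest mean FPKM held 79.3% ± 3.45 of the summed kinesin FPKM in AMH and 83.8% ± 0.609 in control libraries. The median member had a mean of 1.21 FPKM over all libraries. Kif12 and Kif2b had 0 counts in all libraries, which allows up to 3 counts in each, or 0.0370 to 0.0458 CPM in AMH and 0.0455 to 0.0468 CPM in control libraries.

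**Figure D1:**
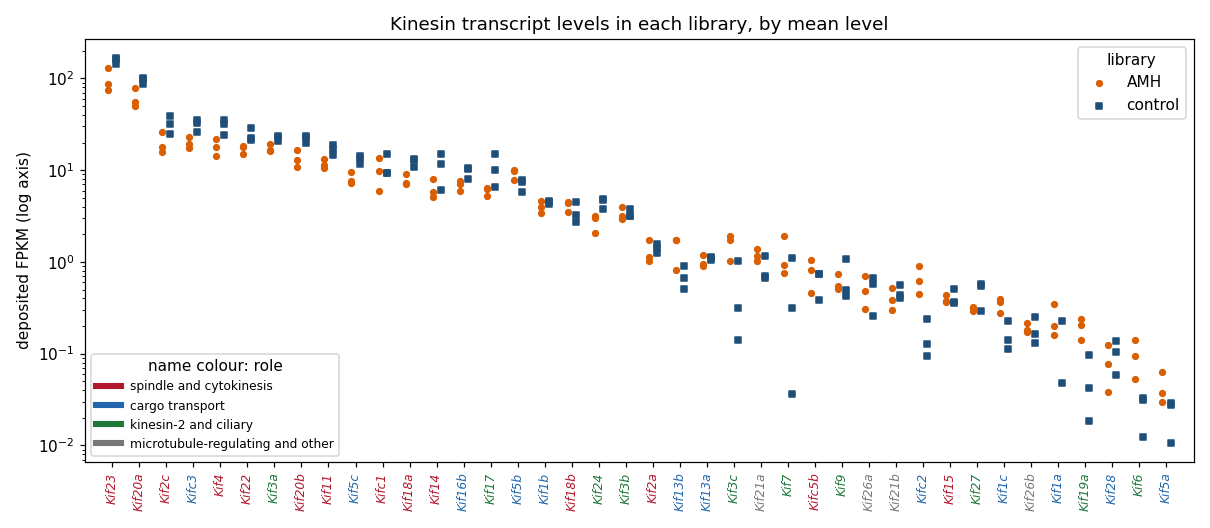
Deposited FPKM (log axis) of each kinesin in each library, ordered by mean level; orange circles are AMH libraries, blue squares control libraries, and the colour of a gene's name marks its role. Kif23 and Kif20a stand above all others, and most genes above 5 FPKM have AMH points lower than control points, while several below 2 FPKM have AMH points higher; a value of 0 (Kif1a in control 2) and the genes at 0 throughout (Kif12 and Kif2b) cannot be drawn.

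Of the 42 kinesins, 40 passed the filter on low counts and were tested. No kinesin passed edgeR's quasi-likelihood test after Benjamini-Hochberg adjustment over 18868 genes, where 0% of all genes were called; the lowest adjusted p among kinesins was 0.116. At an unadjusted p under 0.05, 14 kinesins were lower and 5 higher in AMH libraries, or 35% and 12.5% of those tested, against 17.3% and 20.2% of all genes tested. Every AMH library lay below every control for 13 kinesins (32.5%; 23.3% of all genes tested) and above every control for 6 (15%; 26.9% of all genes tested). The median log2 fold change was -0.18 for kinesins and -0.01 for all genes tested. DESeq2 called 6 kinesins lower (Kif4, Kif18a, Kif20b, Kif5c, Kifc3 and Kif24) and 4 higher (Kifc2, Kif1c, Kif6 and Kif19a), against 8.64% of all genes called lower and 18% called higher among those given an adjusted p by DESeq2. limma-voom called 0 kinesins.

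These counts turned on AMH 3 and control 3. Without AMH 3, edgeR called 6 kinesins lower and 0 higher, against 6.73% lower and 1.45% higher of all genes. Without control 3 it called 11 kinesins lower and 4 higher, against 11.2% and 26.8% of all genes. Without both, a setting chosen after seeing the data, it called 14 lower and 6 higher, against 21.6% and 29.4% of all genes. Directions also depended on scaling, because the median log2 fold change of all genes was -0.01 with TMM, 0.26 when only library size was used, -0.23 after upper-quartile scaling and 0.74 when libraries were scaled to the oocyte markers. The kinesin median was 0.10, -0.42 and 0.58 in those 3 settings. A change of scaling shifts all genes of a library alike. The place of the kinesin median below that of all genes could therefore hardly change, and its recurrence adds nothing.

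**Figure D2:**
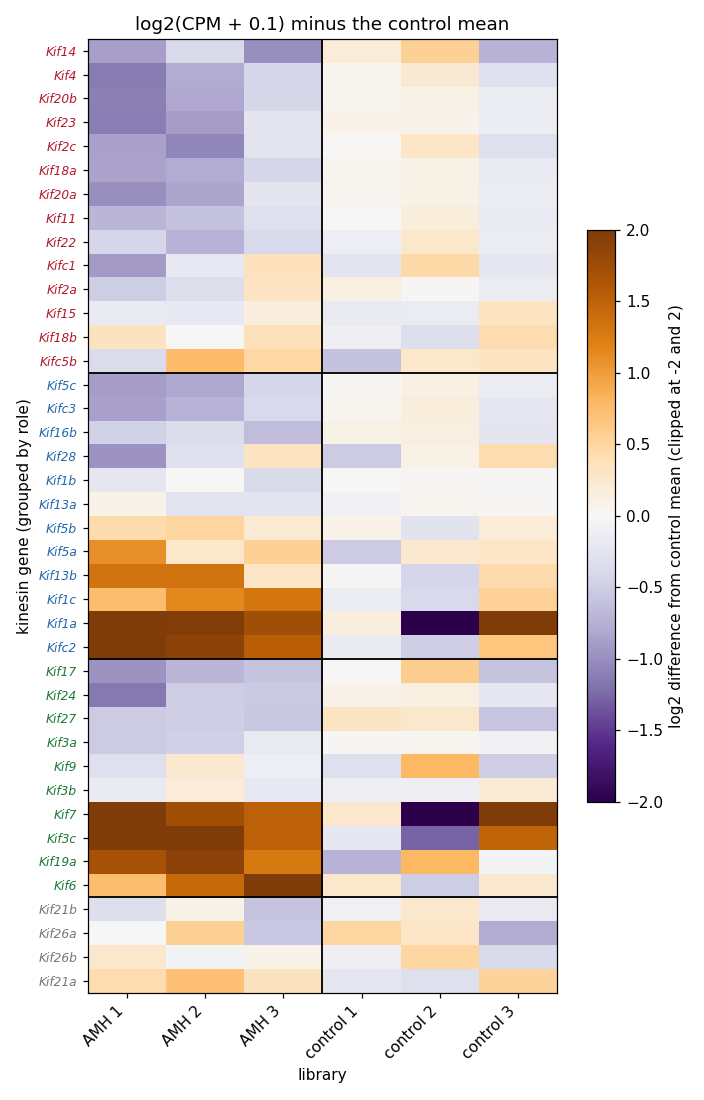
Log2(CPM + 0.1) of each tested kinesin minus its control mean, by library (columns) and role (rows, separated by black lines); purple is lower and orange higher than the control mean, clipped at -2 and 2. AMH 1 and 2 are the darkest purple columns for the spindle genes Kif4 to Kif20a, AMH 3 is paler, and control 3 shares orange with the AMH libraries for Kif7, Kif3c and Kif1a.

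Motors of the spindle and of cytokinesis had mostly lower values in AMH libraries. Of 15 such genes 14 were tested, 12 with a log2 fold change under 0 and 2 above, and the median was -0.59, against -0.01 for all genes tested. Every AMH library lay below every control for 7 of the 14, or 50% (23.3% of all genes tested), and above every control for 0 of them. Their summed level was 1342, 1521 and 2189 CPM in AMH 1, 2 and 3, against 2756, 2933 and 2371 CPM in controls 1, 2 and 3. AMH 3 was thus far closer to control 3 than AMH 1 and 2 were to any control. The group median stayed negative without any 1 library (-0.71 to -0.50) and turned to 0.13 when libraries were scaled to oocyte markers. Lower values were not particular to spindle motors. Of 19 tested oocyte markers, 14 lay wholly below and 0 wholly above the controls, with a median of -0.84.

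Kif23 (chromosome 9, 61915905 to 61946774, minus strand) had 596, 699 and 1100 CPM in AMH 1, 2 and 3, against 1361, 1357 and 1187 CPM in controls 1, 2 and 3. All AMH libraries lay lower, AMH 3 by the least. Its log2 fold change was -0.71 ± 0.26 (SE; edgeR adjusted p = 0.118). Kif20a (chromosome 18, 34624624 to 34633265) had 191, 211 and 321 CPM in AMH 1, 2 and 3, against 387, 405 and 346 CPM in controls, with AMH 3 again next to control 3. Kif20b, another member of this kinesin family that takes part in abscission (chromosome 19, 34922361 to 34975745), had 75.5, 91.7 and 121 CPM in AMH 1, 2 and 3, against 167, 173 and 147 CPM in controls. Its log2 fold change was -0.75 ± 0.21 (edgeR adjusted p = 0.116). The proportions of these 3 relatives stayed nearly fixed: Kif23 made up 55.2% to 57.7% of their summed FPKM in AMH and 56.6% to 57.8% in control libraries.

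Motors that move chromosomes or slide spindle microtubules also had lower values in AMH libraries. Kif18a, which shortens microtubule plus ends and damps chromosome movements (chromosome 2, 109280738 to 109341747), had 69.7, 73.1 and 94.8 CPM in AMH 1, 2 and 3, against 132, 135 and 113 CPM in controls. Its log2 fold change was -0.68 ± 0.18 (edgeR adjusted p = 0.116). Kif4, a chromosome-bound motor that limits the central spindle (X, 100625737 to 100727214), had 79.4, 101 and 128 CPM in AMH 1, 2 and 3, against 181, 203 and 142 CPM in controls, and -0.77 ± 0.23 on the log2 scale (edgeR adjusted p = 0.116). In both genes the groups did not overlap. Kif11, the tetrameric motor that pushes spindle poles apart (chromosome 19, 37376403 to 37421859), had 51.9, 55.2 and 68.2 CPM in AMH 1, 2 and 3, against 83.7, 94.3 and 75.3 CPM in controls. Kif22, which pushes chromosome arms away from the poles, had 91.6, 74.1 and 94.0 CPM in AMH 1, 2 and 3, against 114, 148 and 111 CPM in controls. Both also had every AMH library below every control, but in Kif22 AMH 2 was the lowest library and AMH 1 and 3 were nearly equal. Several of these genes overlap a gene on the other strand, with which reads may be shared: Kif4 had 56597 counts over all libraries against 12979 for Pdzd11, Kif18a 42078 against 8723 for Mettl15, and Kif20a 126443 against 12762 for Cdc23.

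In Kif2c and Kif14 the groups overlapped through control 3. Kif2c, which takes microtubules apart at centromeres, had 78.6, 69.2 and 120 CPM in AMH 1, 2 and 3, against 145, 176 and 116 CPM in controls 1, 2 and 3. Kif14, a motor of cytokinesis, had 60.2, 85.3 and 55.8 CPM in AMH 1, 2 and 3, against 126, 162 and 67.0 CPM in controls 1, 2 and 3, so the spread was wider among controls than among AMH libraries. Its log2 fold change of -0.82 ± 0.35 was the lowest of the spindle group (edgeR adjusted p = 0.136).

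Other spindle genes did not share the lower values. Kifc1, a minus-end motor that focuses spindle poles, had 20.6, 34.2 and 49.8 CPM in AMH 1, 2 and 3, against 32.7, 53.8 and 33.6 CPM in controls, so the groups overlapped, with AMH 1 lowest and control 2 highest. Its counts are uncertain, because 39.7% of the 50-base words in its annotated transcripts also occur in other genes, chiefly Kifc5b. Kifc5b itself shared 37.4% of its words and had 2.11 ± 0.801 CPM in AMH and 1.69 ± 0.568 CPM in control libraries (SD, n = 3 each). Kif18b, a relative of Kif18a, had 16.2, 12.7 and 16.6 CPM in AMH 1, 2 and 3, against 11.9, 10.2 and 17.1 CPM in controls 1, 2 and 3. Kif2a, a relative of Kif2c, had 8.56 ± 2.74 CPM in AMH and 9.42 ± 0.935 CPM in control libraries, and overlaps Dimt1 on the other strand, which had 2861 counts against 3698. Kif15, which backs up Kif11 in dividing cells, was rare, with 0.391 ± 0.0426 FPKM in AMH and 0.409 ± 0.0795 FPKM in control libraries, against 11.7 ± 1.38 and 16.8 ± 2.01 FPKM for Kif11.

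Marker sums ran in a like order of libraries. Proliferation markers (13 genes) summed to 1284, 1408 and 2005 CPM in AMH 1, 2 and 3, against 2329, 2459 and 2067 CPM in controls 1, 2 and 3. For 7 of the 13 no AMH library reached the lowest control, against 23.3% of all genes tested. The oocyte marker sum given above ran in nearly the same order of libraries. The part of oocyte or cumulus RNA content in the difference was not tested.

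**Figure D3:**
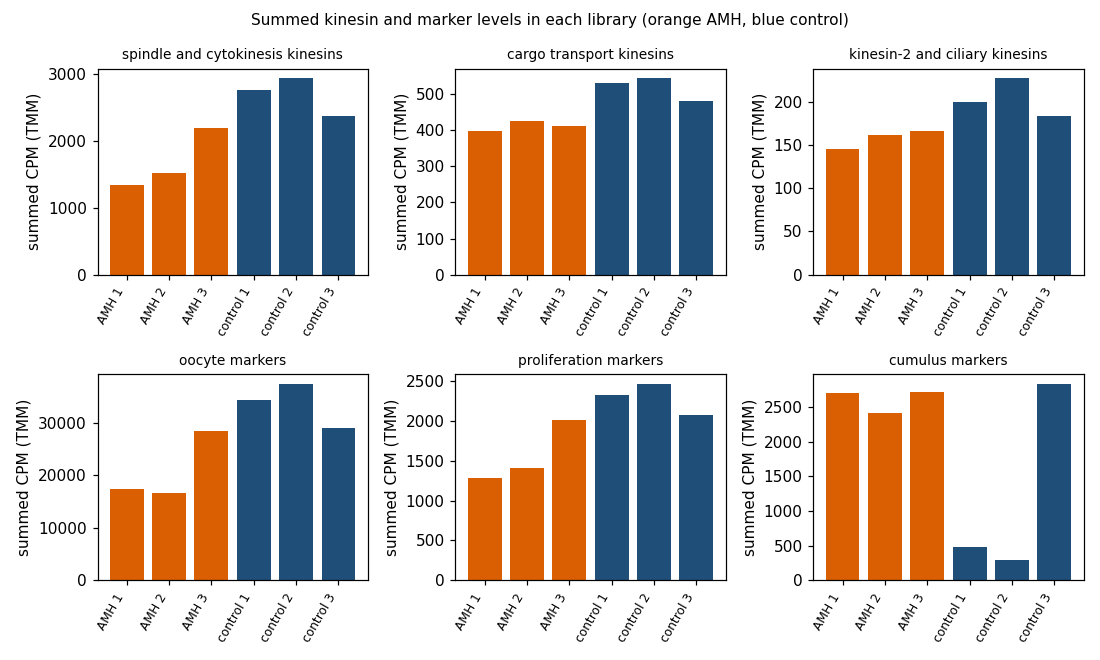
Summed CPM in each library (bars; orange AMH, blue control) of 3 kinesin role groups in the upper row and of oocyte, proliferation and cumulus markers in the lower row, each axis from 0. The spindle kinesins run in an order much like the oocyte and proliferation markers, with 1342 and 1521 CPM in AMH 1 and 2 and 2189 CPM in AMH 3, whereas cumulus markers separate controls 1 and 2 from the other 4 libraries.

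Promoter sequence was available for 33 of the 42 kinesins from RefSeq (GRCm38.p6), as windows of which the 250 bases before the start were searched on both strands. The cell cycle homology region is a motif known from genes expressed late in the cell cycle, here TTTGAA or TTCGAA. It was found in 5 of 14 spindle genes with a window (Kif11, Kif14, Kif15, Kif22 and Kif2c), in 4 of 19 other kinesins, and in 19.6% of 27025 genes. These 14 include Kif2b, which had 0 counts, so they are not the 14 tested. The X-box is bound by RFX factors and known from ciliary genes, and was searched as GTNNCC and GGNNAC with 2 bases between them. It was found in Kif9, Kif18a and Kif23, or 9.09% of kinesins with a window, against 1.81% of all genes; with 3 bases between them it was found in 0 of 33. The CCAAT box, CCAAT, bound by NF-Y, was found in 16 of 33 kinesins, or 48.5%, against 37.5% of all genes, and 2 or more copies, counted within those, in 7 of 33, or 21.2%, against 11.5%. Of the 14 spindle genes with a window 9 held a CCAAT box. Stretches around the homology region or the X-box are shown for the 3 spindle genes in which the match nearest the start lies before the deposited gene span. Every AMH library lay below every control in these 3, against 23.3% of all genes tested. Of the other kinesins with either motif, Kif22 and Kif24 also lay wholly below the controls. In Kif14, Kif15, Kif2c, Kif9, Kif1a, Kif26b and Kif27 the groups overlapped. A link between motif and level was not tested. Capitals mark the motif, and each stretch runs 5′ to 3′ on the gene's strand.
Kif11, chr19:37376323-37376381, plus strand, homology region: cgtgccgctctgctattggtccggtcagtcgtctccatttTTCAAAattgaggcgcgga
Kif18a, chr2:109280628-109280721, plus strand, X-box: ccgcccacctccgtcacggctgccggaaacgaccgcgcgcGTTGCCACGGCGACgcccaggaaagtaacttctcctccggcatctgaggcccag
Kif23, chr9:61946832-61946925, minus strand, X-box: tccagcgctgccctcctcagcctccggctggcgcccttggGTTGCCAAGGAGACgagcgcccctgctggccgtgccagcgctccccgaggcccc
The match in Kif11 is on the opposite strand, as TTCAAA. Such a match describes the letters only.

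Cargo motors split between lower and higher values. Of 12 transport genes, all tested, 6 had a log2 fold change above 0 and 6 below, and the median was 0.12. That median was -0.10 after upper-quartile scaling, and -0.28 and -0.32 in the filtered FPKM fits with pseudocounts 1 and 0.1. In 3 of them (Kif5c, Kifc3 and Kif16b) every AMH library lay below every control, and in 3 others (Kif5b, Kif1c and Kifc2) above, or 25% each way, against 23.3% and 26.9% of all genes. The genes below were among the abundant ones, so the summed level of the group was 397, 425 and 411 CPM in AMH 1, 2 and 3, against 531, 544 and 480 CPM in controls 1, 2 and 3.

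The heavy chains of conventional kinesin had differences of opposite sign, neither of which passed the test. Kif5c (chromosome 2, 49619298 to 49774778), known mainly from neurons, had 52.6, 55.5 and 73.3 CPM in AMH 1, 2 and 3, against 100, 107 and 88.8 CPM in controls. Its log2 fold change was -0.70 ± 0.19 (edgeR adjusted p = 0.116). Kif5b, the widely expressed heavy chain (chromosome 18, 6201002 to 6242174), had 72.4, 75.5 and 61.4 CPM in AMH 1, 2 and 3, against 56.2, 44.2 and 60.5 CPM in controls. AMH 3 and control 3 were nearly equal, and the log2 fold change was 0.38 ± 0.19 (edgeR adjusted p = 0.166). A ratio of both genes within a library does not depend on how libraries are scaled: Kif5b over Kif5c was 1.33, 1.31 and 0.809 in AMH 1, 2 and 3, against 0.544, 0.400 and 0.658 in controls 1, 2 and 3. Kif5b thus made up 52.7% ± 7.02 of the summed FPKM of the 3 heavy chains in AMH and 34.5% ± 5.57 in control libraries (SD, n = 3 each). Kif5a, the third heavy chain and a neuronal one, was barely counted, at 0.309 ± 0.121 CPM in AMH and 0.164 ± 0.0752 CPM in control libraries.

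Kifc3, a minus-end motor of Golgi and cell junctions (chromosome 8, 95099828 to 95202812), was the most abundant transport gene per length. It had 93.9, 104 and 130 CPM in AMH 1, 2 and 3, against 177, 192 and 146 CPM in controls, and -0.66 ± 0.19 on the log2 scale (edgeR adjusted p = 0.116). Kifc2, a minus-end motor best known from neurons (chromosome 15, 76659858 to 76668196), had 3.57, 2.45 and 1.89 CPM in AMH 1, 2 and 3, against 0.512, 0.390 and 0.986 CPM in controls. At 2.06 ± 0.47 its log2 fold change was the highest of all kinesins and its unadjusted p of 0.00335 the lowest, but the adjusted p was 0.116. Kifc2 lies across from Cyhr1 on the other strand, which had 7208 counts over all libraries against 724 for Kifc2, and the strand setting of the counting is not given in the sources used here.

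Among the vesicle motors related to Kif1, Kif16b, which moves endosomes (chromosome 2, 142617474 to 142901531), had 65.4, 70.2 and 57.5 CPM in AMH 1, 2 and 3, against 95.9, 99.0 and 76.3 CPM in controls, with no overlap. Kif1b, a mitochondrial and vesicle motor, had 71.9 ± 9.71 CPM in AMH and 82.0 ± 1.61 CPM in control libraries (SD, n = 3 each; edgeR adjusted p = 0.366). Kif1c (chromosome 11, 70700548 to 70731964) had 2.02, 2.69 and 3.04 CPM in AMH 1, 2 and 3, against 1.05, 0.857 and 1.73 CPM in controls, and 1.09 ± 0.38 on the log2 scale (edgeR adjusted p = 0.118). Kif13b had 23.0, 23.0 and 11.3 CPM in AMH 1, 2 and 3, against 9.06, 6.81 and 12.5 CPM in controls 1, 2 and 3. Control 3 thus exceeded AMH 3. Its close relative Kif13a had 8.44 ± 1.21 CPM in AMH and 9.29 ± 0.434 CPM in control libraries. Kif1a, the synaptic vesicle motor, had 266, 145 and 104 counts in AMH 1, 2 and 3, against 30, 0 and 147 counts in controls 1, 2 and 3. The cumulus marker sum had the same order among controls but another order among AMH libraries. The part of cumulus RNA in this gene's counts was not tested. Kif28 had under 0.6 CPM in every library and shares its strand and span with Ahctf1, which has far more counts.

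**Figure D4:**
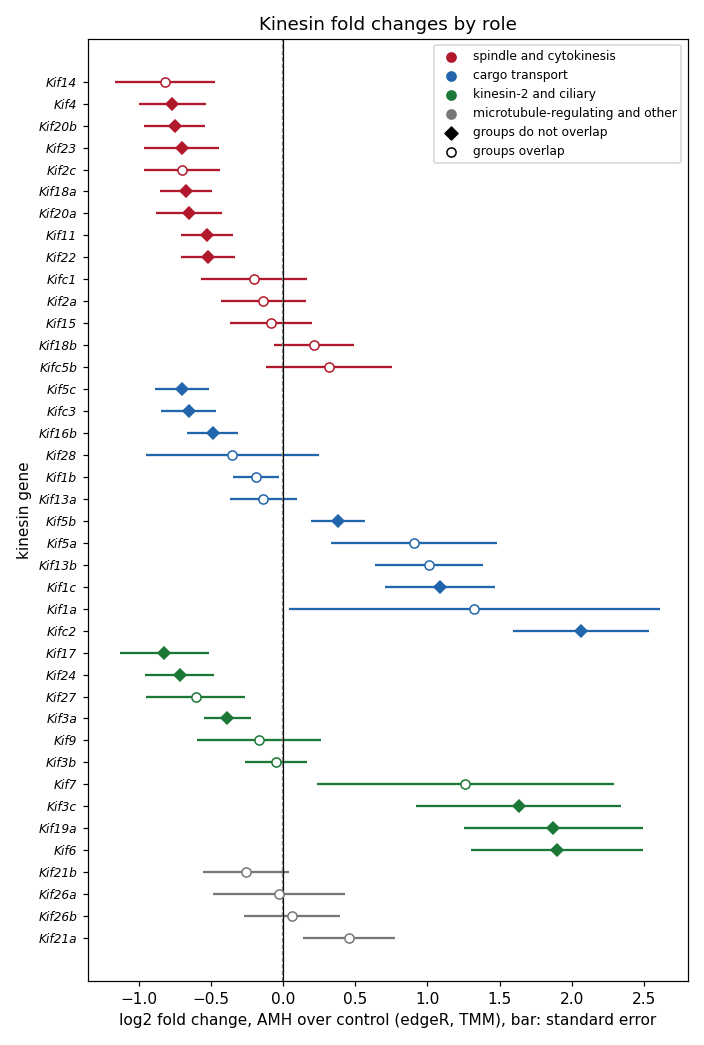
Log2 fold change of AMH over control for each tested kinesin (edgeR with TMM), with its standard error as a bar, grouped and coloured by role; filled diamonds mark genes whose groups do not overlap, and the dashed line is the median of all genes tested (-0.01). Spindle genes from Kif14 to Kif22 lie between -0.82 and -0.52, transport and ciliary genes spread to both sides, and the widest bars belong to Kif1a (SE 1.29) and Kif7 (SE 1.03).

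Kinesin-2 genes and other motors linked to cilia also had values on both sides of the controls. Of 10, all tested, 6 had a log2 fold change under 0 and 4 above, and the median was -0.11; 3 lay wholly below (Kif3a, Kif17 and Kif24) and 3 wholly above (Kif3c, Kif6 and Kif19a), or 30% each, against 23.3% and 26.9% of all genes tested. Without control 2 the median was 0.12. Kif3a, a motor subunit of intraflagellar transport (chromosome 11, 53567379 to 53601967), had 58.2, 59.9 and 74.2 CPM in AMH 1, 2 and 3, against 84.8, 87.2 and 79.6 CPM in controls, and -0.39 ± 0.16 on the log2 scale (edgeR adjusted p = 0.133). Its partner Kif3b had 17.8, 22.6 and 17.4 CPM in AMH 1, 2 and 3, against 18.6, 18.6 and 22.8 CPM in controls, so the groups overlapped. Kif3c, a neuronal alternative partner of Kif3a (chromosome 12, 3365132 to 3406494), had 14.4, 13.03 and 8.04 CPM in AMH 1, 2 and 3, against 2.40, 1.09 and 7.95 CPM in controls 1, 2 and 3. AMH 3 and control 3 were almost the same, and without control 3 the log2 fold change was 2.75 (edgeR adjusted p = 0.0167), against 1.63 ± 0.71 with it (adjusted p = 0.141). The cumulus marker sum was likewise higher in control 3 than in the other controls, and its part in this gene's difference was not tested.

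Kif17, a homodimeric motor known from dendrites, cilia and male germ cells (chromosome 4, 138250435 to 138301967), had 24.2, 29.1 and 31.5 CPM in AMH 1, 2 and 3, against 47.5, 71.1 and 31.5 CPM in controls 1, 2 and 3. AMH 3 lay below control 3 by less than the printed digits. Kif24, which shortens microtubules at the mother centriole and restrains cilium formation (chromosome 4, 41390745 to 41464887), had 16.6, 25.9 and 25.4 CPM in AMH 1, 2 and 3, against 38.9, 40.7 and 32.1 CPM in controls, and -0.72 ± 0.24 on the log2 scale (edgeR adjusted p = 0.116). Kif7, a regulator of Hedgehog signalling at the cilium tip, had 8.97, 4.34 and 3.71 CPM in AMH 1, 2 and 3, against 1.505, 0.171 and 5.42 CPM in controls 1, 2 and 3. It lies across from Ticrr, whose 145808 counts exceed its own 1768 by far.

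The motors of motile cilia were rare and differed among themselves. Kif6 (chromosome 17, 49615136 to 49909847) had 26, 44 and 59 counts, or 0.320, 0.576 and 0.9002 CPM, in AMH 1, 2 and 3, against 13, 5 and 13 counts, or 0.202, 0.0779 and 0.197 CPM, in controls. Kif19a, which sets cilium length (chromosome 11, 114765388 to 114790739), had 68, 76 and 40 counts in AMH 1, 2 and 3, against 5, 26 and 12 counts in controls. Their log2 fold changes were 1.90 ± 0.59 and 1.87 ± 0.62 (edgeR adjusted p = 0.116 for each). For Kif19a it was 2.62 without control 2 and 1.46 without control 1. Kif9, the relative of Kif6 in the same family and a motor of sperm and cilia, had 2.18, 3.23 and 2.502 CPM in AMH 1, 2 and 3, against 2.19, 4.801 and 1.91 CPM in controls, and Kif27 had 1.67 ± 0.0342 CPM in AMH and 2.54 ± 0.807 CPM in control libraries. Of 21 tested markers of motile cilia, 10 lay wholly above the controls and 2 wholly below, against 26.9% and 23.3% of all genes tested. Among the 10, Pifo, Cfap100 and Stoml3 had at most 0.0152, 0.0624 and 0.0624 CPM in a control. They passed the filter on low counts only through the AMH libraries, so their place above the controls was partly set by that filter. Kif6 and Kif19a, each with 5 counts in 1 control, also needed AMH libraries to pass it. Foxj1, the master transcription factor of motile cilia, had 5.43, 2.54 and 1.04 CPM in AMH 1, 2 and 3, against 0.202, 0.0624 and 0.167 CPM in controls. The summed cilia markers were 207 to 262 CPM in AMH and 247 to 399 CPM in control libraries, most of it from Ccno and Dnah9, which are counted in these oocyte libraries at 104.9 and 37.5 CPM in AMH and 201.5 and 59.3 CPM in control libraries. Oviduct secretory markers (10 genes) summed to 741, 427 and 180 CPM in AMH 1, 2 and 3, against 82.0, 35.1 and 199 CPM in controls 1, 2 and 3. The part of oviduct cells in Kif6 and Kif19a was not tested.

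The 5 remaining kinesins, which regulate microtubule growth or have atypical motor domains, showed no separation of groups; 4 were tested, with a median of 0.02 and a lowest adjusted p of 0.283 (edgeR). Kif21a, a brake on microtubule growth, had 7.87 ± 1.09 CPM in AMH and 5.73 ± 1.98 CPM in control libraries (SD, n = 3 each). Its relative Kif21b had 4.99 ± 1.25 CPM in AMH and 5.95 ± 1.01 CPM in control libraries. Kif26a had 3.52 ± 1.37 CPM in AMH and 3.59 ± 1.5 CPM in control libraries, and Kif26b had 2.88 ± 0.334 CPM in AMH and 2.77 ± 0.920 CPM in control libraries.

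Ratios between relatives gave a view that no scaling can change. All pairs, Kif5b over Kif5c included, were chosen after the values were seen. Kifc2 over Kifc3 was 0.0513, 0.0318 and 0.0197 in AMH 1, 2 and 3, against 0.00390, 0.00273 and 0.00908 in controls 1, 2 and 3. Kif18b over Kif18a was 0.638, 0.478 and 0.480 in AMH 1, 2 and 3, against 0.248, 0.207 and 0.418 in controls 1, 2 and 3. In both pairs the first gene had the lower level in every library, and its ratio to the second was higher in every AMH library than in any control. Kif2c over Kif2a was 17.5, 13.7 and 15.1 in AMH 1, 2 and 3, against 20.6, 27.1 and 20.1 in controls 1, 2 and 3. Among the 12 pairs drawn, 5 overlapped between groups, among them Kif20b over Kif20a, with 0.207 to 0.237 in AMH and 0.231 to 0.235 in control libraries. How often other gene pairs overlap was not computed, so this count has no background share. In Kif5b over Kif5c and Kifc2 over Kifc3, the first gene lay wholly above the controls and the second wholly below. The ratios of such pairs had to separate.

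**Figure D5:**
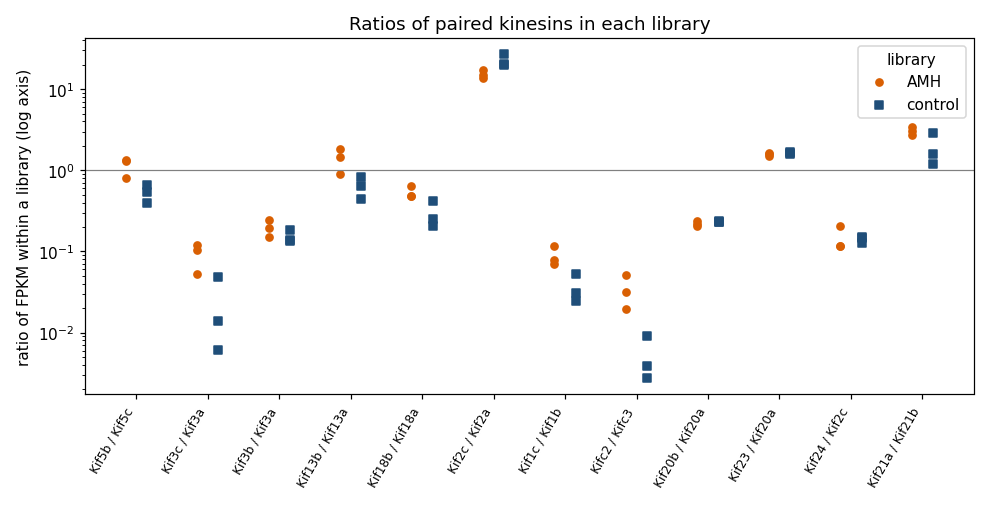
Ratio of FPKM of paired kinesins within each library (log axis; orange circles AMH, blue squares control; grey line at 1). The AMH points of Kif5b over Kif5c (0.809 to 1.33) lie above the control points (0.400 to 0.658), while Kif23 over Kif20a and Kif20b over Kif20a are nearly the same in all libraries.

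Partners of kinesins were read from lists of pathway genes, whose counts stand against all genes tested, of which 26.9% lay wholly above and 23.3% wholly below the controls, and 20.2% were higher and 17.3% lower at an unadjusted p under 0.05. Of 27 spindle partners, all tested, 25 had a negative log2 fold change, the median was -0.59, and 17 lay wholly below and 1 wholly above the controls, but 0 passed edgeR's test (16 lower and 0 higher at an unadjusted p under 0.05). Incenp, a scaffold of the chromosomal passenger complex, had 79.5, 88.5 and 93.7 CPM in AMH 1, 2 and 3, against 140, 161 and 113 CPM in controls. Ect2, the exchange factor that centralspindlin brings to the division plane, had 122, 138 and 184 CPM in AMH 1, 2 and 3, against 247, 245 and 224 CPM in controls. Light chains and cargo adaptors were mixed, with 15 of 20 positive, a median of 0.57, and 4 wholly above and 4 wholly below; 0 passed edgeR's test (5 higher and 4 lower at an unadjusted p under 0.05). Fez2, an adaptor, had 33.3, 26.4 and 24.4 CPM in AMH 1, 2 and 3, against 13.6, 9.52 and 17.2 CPM in controls, and Trak1, which links kinesin to mitochondria, had 94.8, 124 and 131 CPM in AMH 1, 2 and 3, against 182, 206 and 146 CPM in controls. Of 14 intraflagellar transport genes 8 were positive, with a median of 0.10, 3 wholly above and 2 wholly below, and 0 passed edgeR's test (3 higher and 2 lower at an unadjusted p under 0.05). Ift52 had 21.1, 16.2 and 14.7 CPM in AMH 1, 2 and 3, against 8.02, 6.56 and 9.81 CPM in controls, and Ift27 had 8.97 CPM in AMH and 3.02 CPM in control libraries on average.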

How the data were processed

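Whole-number counts per Ensembl gene and FPKM values were deposited by the authors for 6 libraries. The submitters' processing notes list DESeq2 1.20.0, HISAT2 2.0.5 and featureCounts 1.5.0-p3, with GRCm38 and mm10 as builds. What each tool did, any filter and the use of strand were not given in the sources used here. Deposited FPKM values equal count over gene length and 1 effective size per library, 1.05 to 1.18 of the count total in AMH and 0.924 to 0.997 in control libraries. Coordinates are those of the table; 39 of 42 kinesins have the same positions in GENCODE M21.

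Groups were compared with edgeR 4.0.16 in R 4.3.3 by its quasi-likelihood method, with TMM, robust fitting, filterByExpr and group as the only term. The test covered 18868 genes, adjusted by Benjamini-Hochberg at 0.05. It was checked on simulated counts, whose changes were larger than most kinesin differences, so smaller changes were not checked. Standard errors come from the F statistic. Alternatives used DESeq2 1.42.0, limma 3.58.1, other scalings and filters, log2(FPKM + 1) and log2(FPKM + 0.1) in genes above 1 FPKM in 3 libraries, the replicate number as a block, and each library left out. Library pairs were checked for duplicates by a chi-square statistic. The lowest, 55.9 per degree of freedom, was AMH 3 with control 3, so all were kept. These 2 libraries were each less like their own group. The statistic was 274.5 and 238.9 for AMH 3 with AMH 1 and 2, and 190.9 and 350 for control 3 with controls 1 and 2. It was 69.2 for AMH 1 with AMH 2 and 66.0 for control 1 with control 2. The cause was not tested.

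Members, role groups, gene lists, motifs and tests were chosen with earlier results of these data known. The rule for named genes took the 4 of highest FPKM and the 3 of smallest p per role group and 2 per pathway list; others are named beside their relatives after their values were seen. Red cell (7 genes), macrophage (10) and endothelial (8) markers were also summed. Red cell markers had 357, 29.9 and 22.8 CPM in AMH 1, 2 and 3, against 1.88, 1.11 and 5.64 CPM in controls. Macrophage markers had 66.2 to 105 CPM in AMH, against 14.0 to 30.7 CPM in controls. Endothelial markers had 115 to 198 CPM in AMH, against 205 to 246 CPM in controls. Most of the endothelial sum came from Pecam1, with a mean of 109.6 CPM in AMH and 170 CPM in control libraries. Of 6 endothelial markers tested, 2 lay wholly above and 2 wholly below the controls, against 26.9% and 23.3% of all genes tested.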

Additional observations from a re-analysis of the deposited data

How the results depend on the processing

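The count of kinesins called was 0 with edgeR, limma-voom, the other scalings and filters and all 3 FPKM fits, 10 with DESeq2, 0 to 15 when 1 library was left out (6 without AMH 3, 15 without control 3) and 20 without AMH 3 and control 3, chosen after seeing the data. Genes wholly below the controls numbered 13, 0 with oocyte marker scaling and 13 to 17 when 1 library was left out. They numbered 10 with library size only, 15 after upper-quartile scaling and 12 where at least 1 CPM in 3 libraries was required. Genes wholly above numbered 6, 2 with log2(FPKM + 1) and 2 with log2(FPKM + 0.1), where fewer genes pass the filter, 6 to 12 when 1 library was left out and 12 without AMH 3 and control 3. They numbered 7 with library size only, 5 after upper-quartile scaling, 9 with oocyte marker scaling and 4 with the filter at 1 CPM. In the main setting 23.3% of all genes tested lay wholly below and 26.9% wholly above the controls. Shares over all genes in the other settings are not given here. Groups with fewer libraries separate more easily, so the higher counts with libraries left out cannot be read as a result about kinesins. The median log2 fold change of -0.18 was 0.10 when only library size was used, -0.42 after upper-quartile scaling, 0.58 with oocyte marker scaling, -0.48 and -0.50 in the filtered FPKM fits with pseudocounts 1 and 0.1, and -0.31 to -0.0502 when 1 library was left out. The deviations of same-numbered libraries correlated at r of 0.048, -0.122 and -0.294 for numbers 1, 2 and 3. With 3 libraries per group, such values cannot decide whether the numbers pair libraries. With the replicate block 0 kinesins were called and the median was -0.19.

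Of the single genes, 51 values changed sign. With oocyte marker scaling these were Kif20a 0.0376, Kifc3 0.0757, Kif22 0.23, Kif3a 0.34, Kif11 0.20, Kif5c 0.0165, Kifc1 0.49, Kif18a 0.05, Kif14 0.0299, Kif16b 0.31, Kif1b 0.60, Kif24 0.0306, Kif3b 0.72, Kif2a 0.55, Kif13a 0.63, Kif9 0.66, Kif26a 0.86, Kif21b 0.57, Kif15 0.61, Kif27 0.19, Kif28 0.25, Trak1 0.14, Incenp 0.10 and Ect2 0.0205. With library size only they were Kifc1 0.0455, Kif1b 0.0949, Kif3b 0.23, Kif2a 0.11, Kif13a 0.14, Kif9 0.12, Kif26a 0.29, Kif21b 0.0382 and Kif15 0.17. The rest were Kif26b -0.19 with upper-quartile scaling, Kif26a 0.0115 with limma-voom and 0.0031 with the replicate block, and Kif3b 0.14 and Kif26b -0.10 without AMH 3 and control 3. When 1 library was left out the sign changed for Kifc1 (-0.58 to 0.0611), Kif2a (-0.46 to 0.0145), Kif3b (-0.19 to 0.0437), Kif9 (-0.41 to 0.35), Kif15 (-0.23 to 0.0911), Kif26a (-0.37 to 0.22), Kif26b (-0.13 to 0.34). For all of these the cause was not tested. Genes under about 1 CPM, such as Kif6 and Kif28, rest on few counts.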
